A study of Capra hircus with 3 samples.

Results

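Unannotated loci that flank annotated genes were described in the mammary gland of the Laoshan dairy goat, a Chinese milking breed. Such a locus had no gene ID in the deposited table, spanned at least 400 nt, and lay outside every locus with a gene ID but within 10 kb of one on the same scaffold. Of 34764 loci without a gene ID, 12265 (35.3%) were of this kind, which was 24.5% of the 50041 loci in the table. None of the 12265 overlapped the edge of a gene locus, so all were separated from their nearest gene by a gap of 1 to 9998 nt. A deposited locus is an assembly bundle, so this absence may come from how loci were defined, which was not tested. Of the other unannotated loci, 3385 were shorter than 400 nt, 470 lay inside gene loci, 16692 lay farther than 10 kb from a gene and 1952 were on scaffolds that held no gene.

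Mammary tissue of 5 healthy goats aged 4 years, in the third lactation, was taken by surgery on days 10, 90 and 210 of lactation, and for each stage equal RNA from all 5 went into a single library. The libraries are called E (early lactation, day 10), P (peak lactation, day 90) and L (late lactation, day 210), each by its label. Genes listed in the study's supplementary sheets followed these columns better with P and L exchanged. The sheet for E and L had a Spearman rho of 0.82 with P over E and -0.14 with L over E (98 genes). That for E and P had -0.08 with P over E and 0.52 with L over E (42 genes), and that for P and L had -0.85 with L over P (105 genes). A statement about peak or late lactation therefore holds only as far as the column labels do. With 1 library per stage there is no replicate check, and every difference below is a description without a p-value. The values are FPKM (fragments normalised to transcript length and to mapped reads), and the depth behind each locus is unknown. Of the 63506 values written with 7 digits, 97.5% end in 5, as means of 2 values do, so a column may hold a mean of 2 runs, which the sources used here do not state. The summed FPKM of 7 luminal epithelial marker genes was 912 in E, 873 in P and 859 in L, with none of them at 0. T cell markers summed to 22.1, 55.5 and 8.87 FPKM, with CD3E at 0 in 1 library, and macrophage markers to 143, 237 and 74.0 FPKM. These 2 sums were highest in P and lowest in L. The 7 plasma and B cell markers ran otherwise, at 809, 710 and 937 FPKM, lowest in P and highest in L. The part of immune cells in the differences between libraries was not tested.

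Transcripts assembled next to a known gene can have several origins. They may be unannotated first or last exons of that gene, RNA that continues past its end, transcripts started from the same promoter in the opposite direction, or independent noncoding genes. A transcript that is part of its neighbour shares the regulation of that gene, while an independent gene need not. Strand and sequence were not analysed here, so upstream and downstream positions and these kinds are not distinguished.

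The flanking loci crowded towards genes. Within 1 kb of a gene there were 2060 loci, and between 9 and 10 kb there were 649. The decline had a step in it. The number per 200 nt went down from 549 next to the gene to 213 at 1800 to 2000 nt, was 502 at 2000 to 2200 nt, and went down again to 211 at 4800 to 5000 nt. The median gap was 3429 nt (interquartile range 1739 to 5989 nt). The median span from first to last base was 1046 nt (682 to 2159 nt), with little difference between the distances, at 1123 nt under 1 kb and 1026 nt at 5 to 10 kb. Beyond the 10 kb limit the numbers continued without a break, with 578 loci at 10 to 11 kb at a median of 1.30 FPKM against 1.28 FPKM at 9 to 10 kb. Near the limit on span, 359 loci of 400 to 449 nt had a median of 1.90 FPKM, and 301 loci of 350 to 399 nt, which were not counted, had 2.75 FPKM.

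**Figure D1:**
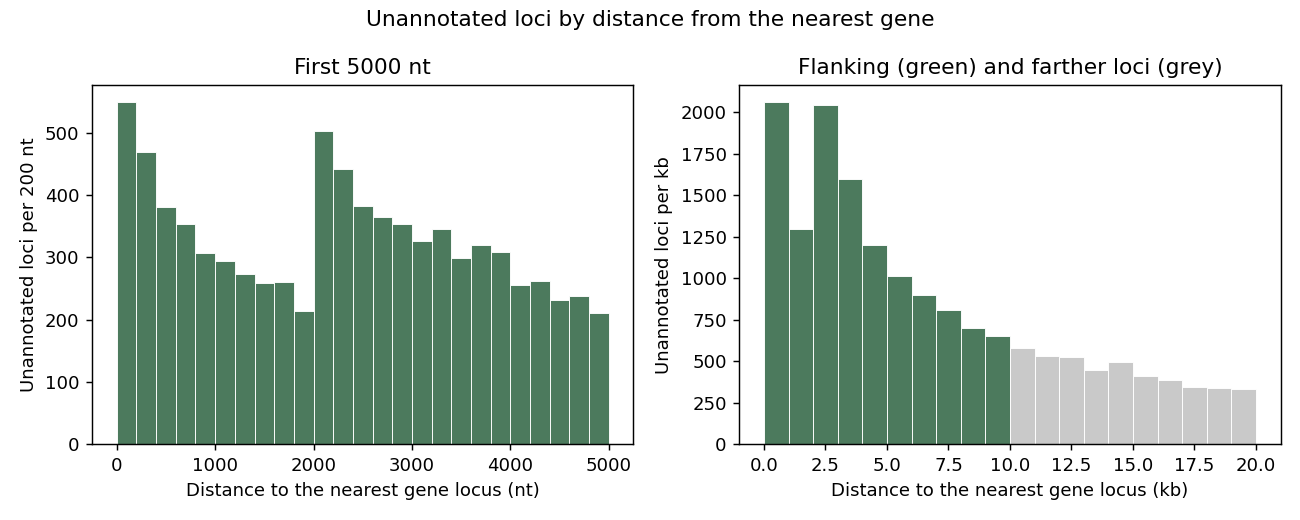
Number of unannotated loci of at least 400 nt (y axis) by distance from the nearest gene locus (x axis, nt on the left and kb on the right). Bars on the left count loci per 200 nt and show the low point of 213 just before 2000 nt and 502 just after it, and bars on the right count loci per kb, green for the flanking loci within 10 kb and grey for loci farther away.

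The 12265 loci lay beside 5369 of the 15277 gene entries (35.1%). One flanking locus was found for 2243 genes, 2 for 1351 genes, 3 or more for 1775 and 5 or more for 530. The nearest gene was protein-coding for 10986 loci (89.6%, against 87.9% of all gene entries) and an annotated lncRNA for 433. SP3, a zinc finger transcription factor, had the most, with 16 entries. Only 4 of these had a locus of their own, since 12 entries shared one locus of 45777 nt that began 9054 nt from SP3. Among all flanking loci, 372 shared their locus with another entry, and their true distance from the gene is then unknown within that locus. A gene on the other side was present for 11648 loci, at a median distance of 42524 nt, and for 1995 of them it also lay within 10 kb.

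Most flanking loci were detected at low level. Above 0 FPKM were 12106 loci in E, 12169 in P and 11979 in L, and 11769 were above 0 in all 3 libraries. Their median was 1.43 FPKM in E, 1.46 in P and 1.34 in L, while the median of their nearest genes was 8.81, 8.62 and 8.61 FPKM. A mean of at least 5 FPKM was reached by 599 loci, and a mean of at least 100 FPKM by 9. Together the flanking loci held 7.01% of the summed FPKM of the table in E, 7.92% in P and 6.91% in L, but 2 loci alone supplied 62.7%, 65.2% and 59.8% of that. Loci found in only 1 library were few, with 5 in E, 36 in P and 4 in L. The highest of them, XLOC_035291, lay 1500 nt from PIEZO1, a mechanically gated ion channel. It was at 0 in E and P and at 11.7 FPKM in L, while PIEZO1 had 20.4, 9.58 and 21.9 FPKM. XLOC_035291 shared its locus with another entry.

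The level of a flanking locus was slightly higher close to the gene. The median over loci of the mean FPKM was 1.54 under 1 kb, 1.40 at 1 to 2 kb, 1.33 at 2 to 5 kb and 1.26 at 5 to 10 kb, whereas the genes had 8.68, 9.65, 9.65 and 9.44 FPKM. On the log2 scale the median ratio of locus to gene was -2.38, -2.56, -2.70 and -2.72 in the same order. The locus was above its gene in 10.4% of pairs under 1 kb and in 5.48% at 5 to 10 kb. Within each distance the interquartile ranges were far wider than these steps. Across loci, the levels of locus and gene correlated weakly, with a Spearman rho of 0.26 under 1 kb and 0.28 at 5 to 10 kb.

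**Figure D2:**
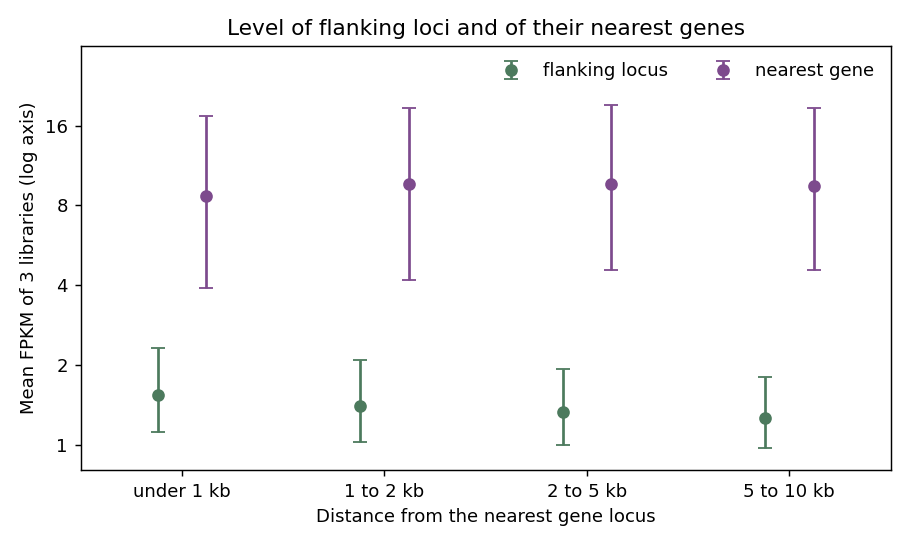
Mean FPKM of the 3 libraries on a log axis (y axis) by distance of the locus from its nearest gene (x axis), with points for the median over loci and bars for the interquartile range. Flanking loci (green) go from 1.54 FPKM under 1 kb to 1.26 FPKM at 5 to 10 kb and stay below their nearest genes (purple), which lie between 8.68 and 9.65 FPKM.

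The 2 most abundant flanking loci had levels of another order, and each lay in a place with a known neighbour in other mammals. XLOC_020674 (scaffold NW_005100760.1, 1184041 to 1184493, 453 nt) lay 151 nt from PARP2, a DNA repair enzyme, and had 33864 FPKM in E, 30098 in P and 29105 in L. PARP2 had 4.52, 3.11 and 4.397 FPKM. The locus was thus near level over the libraries, at 0.889 times the E value in P and 0.859 times in L. In human and mouse, the gene for the RNA component of RNase P, which trims the ends of tRNA precursors, stands head to head with PARP2. XLOC_017441 (scaffold NW_005100740.1, 1930809 to 1931443, 635 nt) lay 51 nt from CCDC107 and had 10753 FPKM in E, 17335 in P and 9287 in L. CCDC107 had 16.5, 10.5 and 20.05 FPKM, so the locus was 1.61-fold higher in P than in E where its neighbour was lower. In human, the RNA component of RNase MRP, an enzyme of ribosomal RNA processing, is encoded next to CCDC107. The gene on the other side was LOC102180501 for the first locus and SIT1 for the second, and both also neighbour the same gene in the goat assembly ARS1.2. Whether these loci are those RNAs was not analysed, since no sequence of the scaffolds was used.

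The 7 next most abundant flanking loci differed less than 2-fold between libraries, most widely XLOC_035445, 1.80-fold higher in E than in P. XLOC_054451, 2180 nt from a gene listed only by the ID 106503975, had 658, 695 and 756 FPKM in E, P and L. XLOC_018576, 628 nt from MAN1A1, a mannosidase that trims N-glycans, had 149, 173 and 177 FPKM, and XLOC_034693, 3915 nt from SNRPD3, a core protein of the spliceosome, had 133, 147 and 155 FPKM. XLOC_005500, 1693 nt from C3H1orf194, stood at 341, 403 and 252 FPKM beside a gene listed at 0 in E and L and at 0.712 FPKM in P. XLOC_035445 near SPG7, a mitochondrial protease subunit, XLOC_037207 near LOC102186901 and XLOC_026869 near MGME1, a mitochondrial DNA nuclease, had 411, 228 and 310, 232, 239 and 161, and 113, 96.1 and 107 FPKM. In each of these 7 the locus was more abundant than its neighbour in every library, and none was 2-fold apart between any pair of libraries. All but XLOC_026869, at 8847 nt, spanned less than 1000 nt, and the part of a short span in these levels was not tested. XLOC_026869 shared its locus with another entry.

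Counts of flanking loci that differed at least 2-fold between libraries were near the background of the table. Between P and E, 4269 of 12261 loci (34.8%) differed at least 2-fold, against 35.2% of all loci. Between L and E, 3404 of 12229 (27.8%) did, against 25% of all loci. Between L and P, 4924 of 12260 (40.2%) did, against 42%. In the same order, 19.9%, 10.8% and 28.0% of loci with a gene ID did. For unannotated loci beyond 10 kb the shares were 44.2%, 31.0% and 51.3%, so the flanking loci lay between these 2 sets. The direction of these calls depended on the level. Over all flanking loci, 2390 were higher and 1879 lower in P than in E, where 19.7% and 15.5% of all loci were higher and lower. In L over E, 1435 were higher and 1969 lower (background 10.2% and 14.8%), and in L over P, 1950 were higher and 2974 lower (17.1% and 24.9%). Among the 599 loci with a mean of at least 5 FPKM, 11 were higher in P than in E and 146 were lower, against a background of 5.08% and 13%. In the same set 153 were higher in L than in P and 26 lower (background 15.6% and 8.08%), and 17 were higher and 19 lower in L than in E (2.43% and 4.21%). Of these 599 loci, 368 (61.4%) were lowest in P, with a median log2 ratio of P over E of -0.34, against -0.16 for all loci at this level. For unannotated loci beyond 10 kb at the same level, 23 were higher and 294 lower of 926, so this was also the direction beyond 10 kb.

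Whether a flanking locus followed its gene was then examined over 9007 pairs in which both had a mean of at least 1 FPKM. Across these pairs, the log2 ratios of locus and gene had a Spearman rho of 0.46 for P over E, 0.20 for L over E and 0.50 for L over P. The pairs come from the same libraries and many share a gene, so rho is given as a description. Genes themselves varied least between E and L, with a standard deviation of the log2 ratio of 0.61 against 0.78 for P over E and 0.93 for L over P. When both members of a pair were at least 2-fold apart, they differed in the same direction in 574 of 610 pairs (94.1%) for P over E, 75 of 88 (85.2%) for L over E and 909 of 961 (94.6%) for L over P.

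The coefficient by distance within 10 kb was as follows. For P over E, rho was 0.47 under 1 kb (1648 pairs), 0.43 at 1 to 2 kb (962), 0.47 at 2 to 5 kb (3536) and 0.44 at 5 to 10 kb (2861). For L over P it was 0.50, 0.45, 0.50 and 0.51, and for L over E 0.23, 0.18, 0.20 and 0.20. The difference between the nearest and the farthest of these distances was 0.031 for P over E, 0.030 for L over E and -0.0044 for L over P. With a mean of at least 5 FPKM it was -0.054, 0.163 and -0.068. Between these settings the sign of the difference changed for P over E but not for L over E or L over P. Its size was not stable in any of the comparisons. Farther away, rho was 0.45 at 10 to 20 kb, 0.49 at 20 to 50 kb and 0.60 at 50 to 100 kb for P over E, the last being 0.45 with 1 locus per gene. Beyond 100 kb it was 0.20. With a mean of at least 5 FPKM, rho for P over E was 0.78 at 10 to 20 kb, 0.67 at 20 to 50 kb and 0.28 at 50 to 100 kb. Beyond 100 kb it was -0.46 at this level (200 pairs), or 0.096 with 1 locus per gene (20 pairs). Loci inside gene loci had a rho of 0.70 for P over E and 0.77 for L over P (394 pairs). With a mean of at least 5 FPKM these were 0.70 and 0.65 (56 pairs), against 0.71 and 0.74 for flanking loci.

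**Figure D3:**
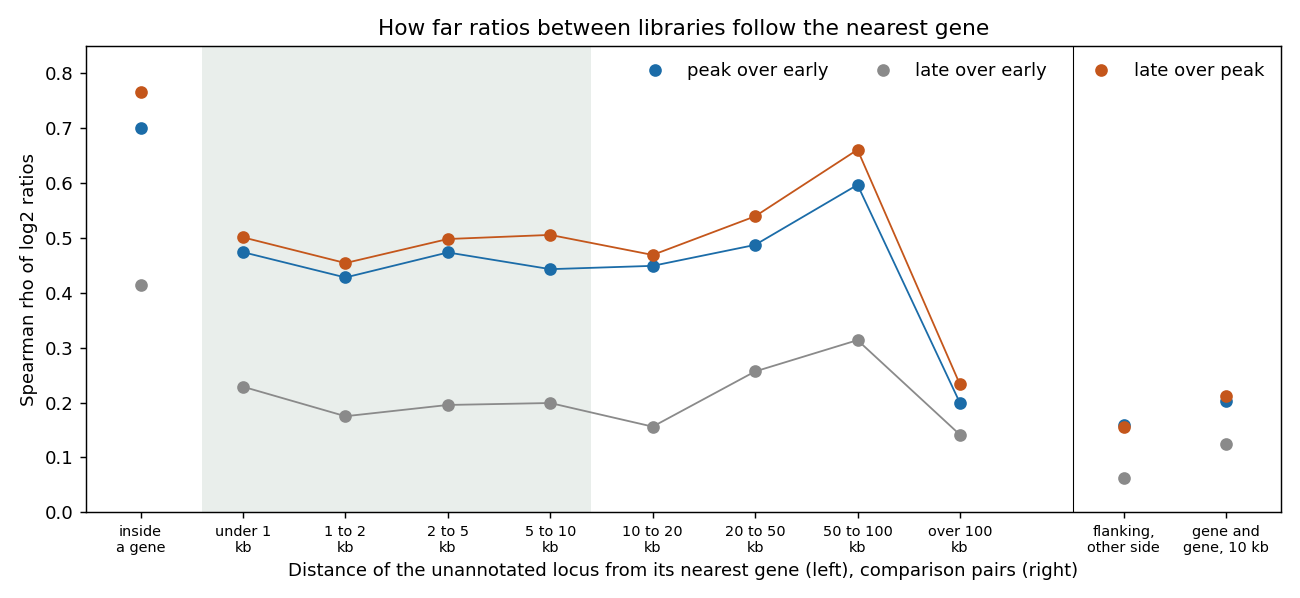
Spearman rho between the log2 ratios of an unannotated locus and of its nearest gene (y axis) by distance (x axis), with a colour for each comparison of libraries and the flanking distances shaded. Within the shaded distances rho stays between 0.43 and 0.51 for P over E and L over P. On the right are the gene on the other side of flanking loci, at any distance, and pairs of neighbouring genes within 10 kb. These lie at 0.16 to 0.21 for the same comparisons.

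The Spearman coefficient was lower for the gene on the other side, and for pairs of neighbouring genes, than for the nearest gene. The gene on the other side was taken at any distance, at a median of 42524 nt over the flanking loci that had one. Its rho was 0.16 for P over E, 0.062 for L over E and 0.16 for L over P (8081 pairs). At least 2-fold differences ran the same way in 73.6% of 375 pairs for P over E. The loci with such a gene had 0.46 and 0.49 with their nearest gene in P over E and L over P (8538 pairs). Where both genes lay within 10 kb (1323 loci), the gap between them narrowed, with 0.35 for the nearer and 0.24 for the other gene in P over E, and 0.34 and 0.27 in L over P. Pairs of neighbouring annotated genes within 10 kb had 0.20 for P over E and 0.21 for L over P (3779 pairs). Both values lie below those of flanking loci and their nearest genes, a difference that was not tested.

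The Spearman coefficient was higher for the more abundant loci. For P over E, rho was 0.40 for loci of 1 to 2 FPKM (6047 pairs), 0.54 for 2 to 5 FPKM (2373) and 0.70 for at least 5 FPKM (587). L over P ran in parallel, with 0.43, 0.59 and 0.74. Where locus and gene both had a mean of at least 5 FPKM (542 pairs), 94 of 95 pairs 2-fold apart in P over E ran the same way, and 117 of 118 in L over P. For the gene on the other side these numbers were 29 of 31 and 42 of 45, in a set of loci of which nearly all 2-fold differences in P over E were in one direction. The exception in L over P was the locus of LALBA, described below, and that in P over E was XLOC_041364, 9379 nt from TC2N, at 3.35, 8.42 and 8.71 FPKM beside a gene at 104, 48.0 and 123 FPKM. Both exceptions were named after their values were seen. Loci beside annotated lncRNAs had a rho of 0.60 for P over E and 0.63 for L over P (264 pairs), against 0.46 and 0.50 beside protein-coding genes (8136 pairs). By other measures they were not closer to their genes. For P over E, the median absolute difference in log2 ratio was 0.48 against 0.44. Pairs 2-fold apart ran the same way in 91.8% against 94.7%. The lncRNA genes also varied more, with a standard deviation of 1.53 against 0.73.

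Pairs were then taken by the difference of the gene, a choice that by itself favours a wider difference in the gene than in the locus. Over all 9007 pairs the loci varied more than the genes, with a standard deviation of the log2 ratio of 0.95 against 0.78 for P over E and 1.07 against 0.93 for L over P. Genes at least 2-fold lower in P than in E had 770 flanking loci, with a median log2 ratio of -1.04 against -1.41 for the genes, and 402 of these loci (52.2%) were themselves at least 2-fold lower while 21 were higher. Genes at least 2-fold higher in P had 448 flanking loci with a median of 0.78 against 1.30, of which 172 (38.4%) were at least 2-fold higher and 15 lower. Beside genes less than 2-fold apart, 8.11% of 7789 loci were higher and 9.64% lower, and over all loci of the table with a mean of at least 1 FPKM these shares were 11.7% and 14.1%. By distance, the share of loci that were lower beside lower genes was 57.8% under 1 kb and 48.5% at 5 to 10 kb in P over E, while the share higher beside higher genes was 32.1% and 37.8%. The direction of this step with distance thus depended on the direction of the gene. In L over P, 543 of 958 loci (56.7%) were higher beside higher genes and 366 of 711 (51.5%) lower beside lower genes, against 16.2% and 16% over all loci.

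**Figure D4:**
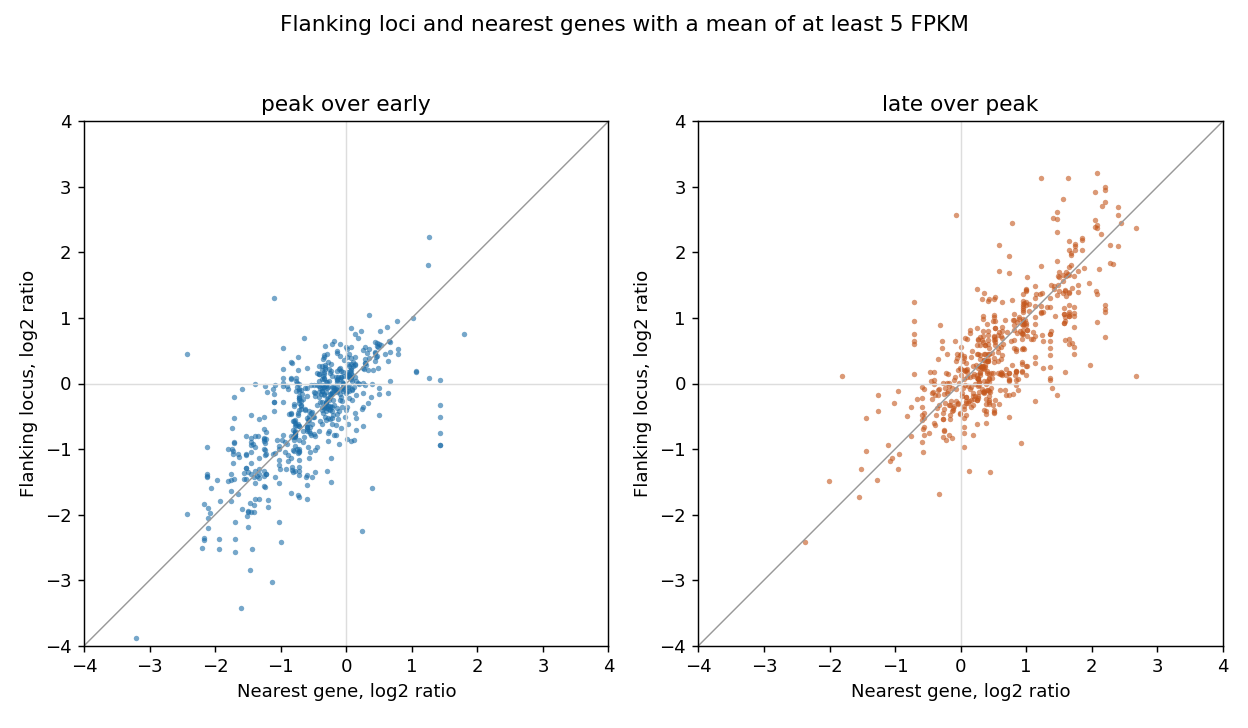
Log2 ratio of the flanking locus (y axis) against that of its nearest gene (x axis) for 542 pairs with a mean of at least 5 FPKM in both, P over E on the left and L over P on the right, with a line where both are equal. Most points lie along the line with P lowest, and 4 pairs in each panel fall outside the axes, among them the flanking loci of gene 106502198 on the left and of LALBA and LPP on the right.

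Loci beside genes of milk fat and lactose synthesis were mostly lowest in P. The summed FPKM of 4 measured adipocyte markers of 6, none of them at 0, was also lowest in P, at 21.2 in E, 7.82 in P and 10.5 in L, and the part of adipocytes in the values below was not tested. Of 32 measured genes of milk fat synthesis and secretion, 16 had 49 flanking loci, and 23 of these loci were at least 2-fold lower in P than in E and 3 higher. In L over P, 32 were higher and 4 lower. Over all loci of the table, 15.5% were lower and 19.7% higher in P than in E. In L over P, 17.1% of all loci were higher and 24.9% lower. Many of the 49 loci share a gene, so they are not separate observations. Their median log2 ratio of P over E was -0.94 over the 42 loci with a mean of at least 1 FPKM, against -0.01 over all 9007 pairs, and -1.31 for the genes. Of the 49, 38 (77.6%) were lowest in P, against 32.3% of all flanking loci.

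CIDEA, a lipid droplet protein used in milk fat secretion, had the 2 most abundant of these. XLOC_045026, 334 nt from CIDEA, had 89.4 FPKM in E, 15.0 in P and 114 in L, and XLOC_045025, at 1863 nt, had 58.8, 11.2 and 59.3, beside 643, 197 and 817 FPKM for the gene. Both loci were at least 5-fold higher in E and in L than in P, a wider difference than that of CIDEA. LPIN1, a phosphatidate phosphatase of glycerolipid synthesis, had 6 flanking loci, all lowest in P. The highest, XLOC_024245 (16615 nt long, 4255 nt from the gene), had 30.4, 15.5 and 33.0 FPKM against 95.1, 21.8 and 101 for LPIN1, so here the locus differed less than the gene. ACSS1, an acetyl-CoA synthetase, had 5 of 6 loci lowest in P, and ACSL1, a long-chain acyl-CoA synthetase, 4 of 5. XDH, needed to envelope milk fat droplets, had both of its loci lowest in P, as XLOC_022907 shows with 6.20, 1.25 and 6.43 FPKM beside 1558, 509 and 2148 FPKM.

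Some loci beside milk fat genes did not share this profile. FABP3, a fatty acid-binding protein, had 3051, 563 and 3583 FPKM and 5 flanking loci. XLOC_004226, 3307 nt away, followed it with 6.31, 1.52 and 8.30 FPKM, but XLOC_004227, only 705 nt away, had 6.40, 8.77 and 9.54 FPKM and was lowest in E. This was among the 5 widest differences from a nearest gene over the 186 pairs of at least 5 FPKM whose gene was 2-fold apart in some comparison. The 3 loci of AGPAT2, an enzyme of phosphatidic acid synthesis, were highest in P at 1.30 to 2.304 FPKM, and AGPAT2 itself had 11.9, 17.9 and 8.48 FPKM.

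Of 20 genes of lactose synthesis and nutrient transport, 13 had 27 flanking loci, of which 20 were at least 2-fold lower in P than in E and 0 higher. In L over P, 23 were higher and 0 lower. The shares over all loci were 15.5% lower and 19.7% higher for P over E, and 17.1% higher and 24.9% lower for L over P. Several of the 27 loci share a gene. Their median log2 ratio of P over E was -1.50 over 21 loci, beside -1.65 for the genes. Of the 27, 25 (92.6%) were lowest in P, against 32.3% of all flanking loci. B4GALT1, the catalytic subunit of lactose synthase, had XLOC_017845 at 2371 nt with 13.5, 4.12 and 14.2 FPKM beside 381, 121 and 447 for the gene. The locus and the gene thus kept almost the same proportions at very different levels. SLC34A2, a sodium phosphate cotransporter, had 6 loci that ranged from 1.29 to 9.89 FPKM in E and from 0 to 0.334 in P. The highest, XLOC_012340 at 5704 nt, had 9.89, 0.0960 and 3.28 FPKM beside 162, 16.6 and 96.5 for the gene. The zinc transporter SLC30A4 and the glucose transporter SLC2A1 had all of their 2 and 3 loci lowest in P, whereas XLOC_001973 beside the calcium pump ATP2C1 had 1.56, 2.07 and 1.49 FPKM.

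LALBA, the regulatory subunit of lactose synthase and a major whey protein, was the only one of 4 measured milk protein genes with a flanking locus. XLOC_009255 (7771 nt long, 2224 nt away) had 73.5, 12.9 and 80.5 FPKM, while LALBA had 70053 in E, 15214 in P and was listed at 0 in L. The flank kept the profile of the milk genes in L, where the gene entry was at 0, and no ratio to L is given for LALBA. This was the exception among the 118 pairs above. A similar case was LPP, an adhesion protein whose assembly locus holds 2 gene entries. XLOC_000949 and XLOC_000948, at 4902 and 8932 nt, had 10.7, 12.2 and 11.98 FPKM and 12.7, 14.4 and 14.1 FPKM, beside 7.01, 14.7 and 0.0466 for LPP.

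Loci beside regulators of lactation were more mixed. Of 22 measured genes, 15 had 46 flanking loci, with 6 higher and 10 lower in P than in E. Over all loci of the table, 19.7% were higher and 15.5% lower, so the balance ran the other way. The median log2 ratio of these loci was 0.26 over the 38 with a mean of at least 1 FPKM. The single locus of ELF5, a transcription factor of alveolar differentiation, XLOC_031314, had 1.66, 0.213 and 1.46 FPKM beside 879, 244 and 875 for ELF5. Of the 8 loci of IGF1R, the IGF1 receptor, 5 of GHR, the growth hormone receptor, and 3 of ESR1, the oestrogen receptor, 0 were lowest in P. XLOC_019571, 4724 nt from ESR1, had 4.73, 7.09 and 5.41 FPKM against 17.7, 24.6 and 20.7 for the gene. PGR, the progesterone receptor, had 5.66, 15.4 and 9.35 FPKM and went with 6 entries sharing one locus of 15628 nt at 2841 nt, of which the highest, XLOC_030135, had 18.5, 19.2 and 29.1 FPKM. The other 5 of these entries were lowest in P where PGR was highest.

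Genes of involution and tissue remodelling, 8 of 18 measured, had 15 flanking loci with 4 at least 2-fold higher and 0 lower in P than in E, and 0 higher and 3 lower in L than in P. These are few loci, and the shares over all loci were 19.7% higher in P than in E and 24.9% lower in L than in P. XLOC_042944 lay 120 nt from LTF, the antibacterial milk protein lactoferrin, and had 3.48, 2.68 and 0.306 FPKM beside 1074, 556 and 75.3 for LTF, so both were lowest in L. XLOC_038253 near TIMP2, a metalloproteinase inhibitor, had 1.46, 1.59 and 1.33 FPKM against 24.7, 56.0 and 21.7. Ribosomal protein genes, 4 of 18 measured, had 8 flanking loci, all below 5 FPKM, with 3 higher and 2 lower in P than in E, against 19.7% and 15.5% over all loci.

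**Figure D5:**
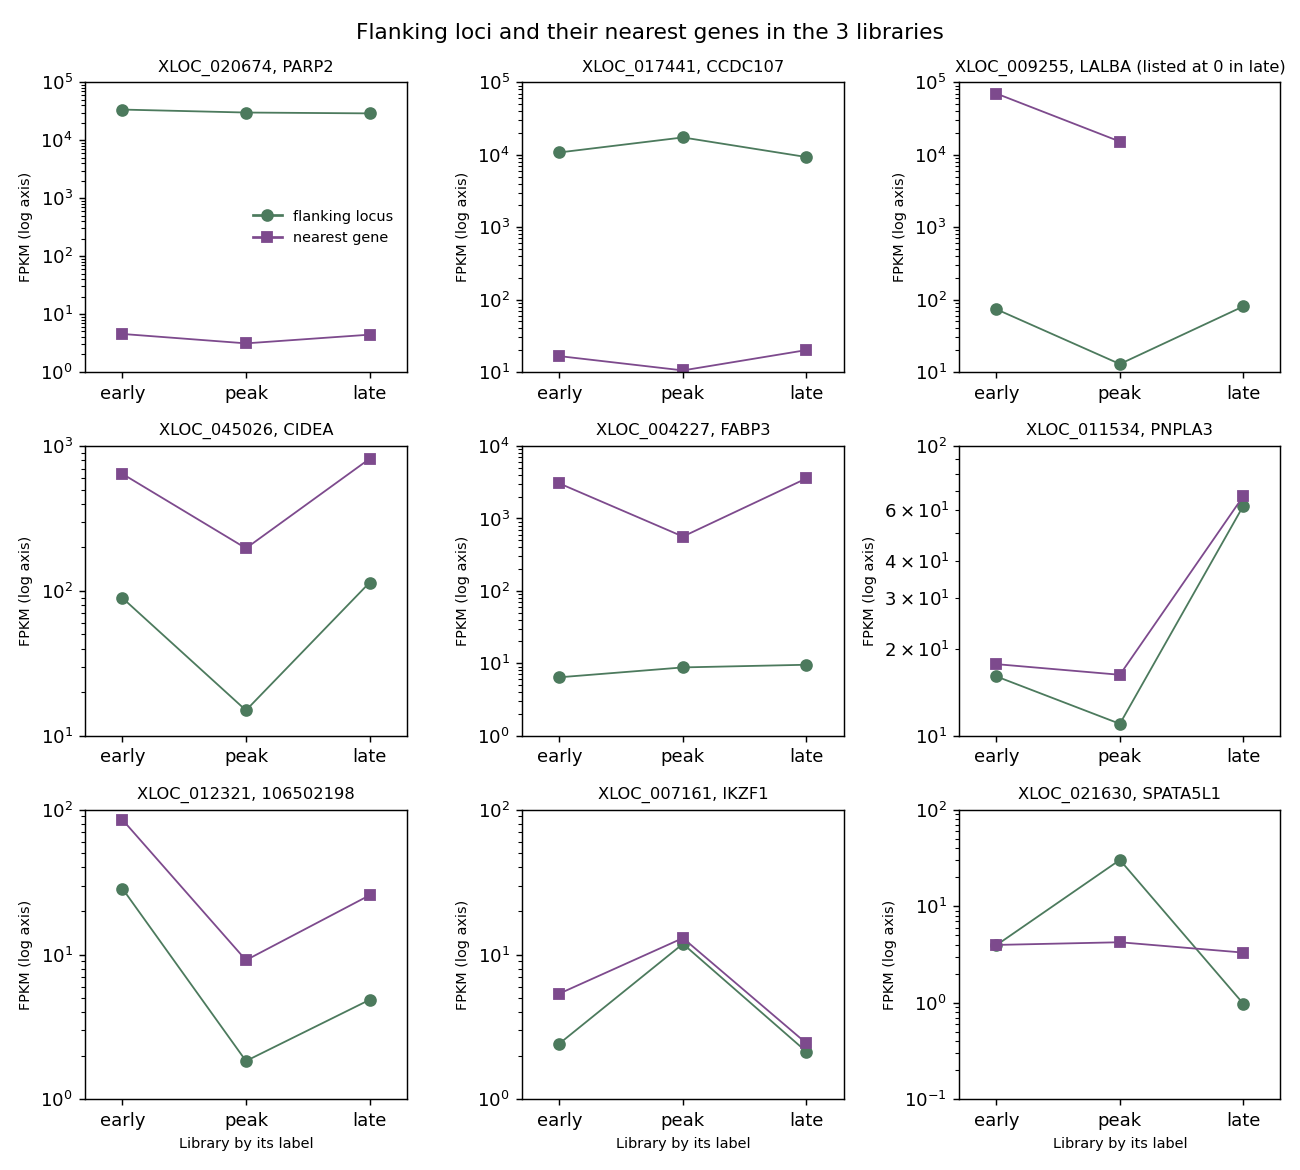
FPKM on a log axis (y axis) in E, P and L (x axis, early, peak and late by label) for 9 flanking loci (green circles) and their nearest genes (purple squares). In the pairs of CIDEA, PNPLA3, gene 106502198 and IKZF1, locus and gene have the same order of libraries, with differences of unequal size. XLOC_009255 keeps 80.5 FPKM in the late library where LALBA is listed at 0, and the loci of CCDC107, FABP3 and SPATA5L1 run apart from their genes.

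The widest ratios among loci with a mean of at least 5 FPKM and at least 1 FPKM in both libraries compared often came in groups beside one gene. Gene 106502198, which has no symbol in the gene table, had 5 flanking loci at 775 to 9571 nt, all highest in E and lowest in P. XLOC_012323 had 29.2, 1.06 and 7.03 FPKM, XLOC_012321 had 28.6, 1.84 and 4.87, and XLOC_012325 had 24.8, 1.08 and 4.23, beside 85.5, 9.16 and 25.7 for the gene. These were 27.5-fold, 15.5-fold and 22.9-fold higher in E than in P. The flanking loci of SLC34A2 named above lay on the same scaffold, NW_005100696.1, between 17301754 and 17349852, and those of gene 106502198 between 17271351 and 17280605, so loci of both neighbourhoods were lowest in P. XLOC_030167 near LOC102183984 had 15.9, 1.85 and 17.0 FPKM beside a gene at 15.7, 7.11 and 16.8.

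The 4 loci with the highest ratio of L over E lay beside genes that were also highest in L. PNPLA3, a lipid droplet enzyme, had 17.7, 16.2 and 67.2 FPKM and its flank XLOC_011534, 2536 nt away, had 16.02, 10.99 and 62.3, which was 3.89-fold higher in L than in E at nearly the level of the gene. CD109, a membrane protein that binds TGF-beta, had 11.9, 15.6 and 49.0 FPKM, with XLOC_018389 at 7.12, 7.11 and 22.9 and XLOC_018388 at 6.18, 1.97 and 18.2. Beside MOCS1, an enzyme of molybdenum cofactor synthesis at 45.9, 13.5 and 62.9 FPKM whose assembly locus also holds 2 gene entries, XLOC_043523 had 1.67, 0.409 and 13.5 FPKM, and 2 of the loci closer to the gene, XLOC_043519 and XLOC_043520, were 7.91-fold and 8.20-fold higher in L than in P. XLOC_007279, 384 nt from ICA1, had 4.88, 2.78 and 15.6 FPKM against 23.3, 16.05 and 27.7. XLOC_028612, 113 nt from the hyaluronan synthase gene HAS2, had the opposite order, with 15.3, 3.94 and 3.56 FPKM where HAS2 had 6.63, 1.22 and 6.13. XLOC_028612 shared its locus with another entry.

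Among loci highest in P, one lay beside a gene of lymphocytes. XLOC_007161 was 2825 nt from IKZF1, a transcription factor of lymphocytes, and had 2.43, 11.9 and 2.13 FPKM beside 5.38, 13.0 and 2.44. XLOC_021561 near GLDN had 3.23, 12.4 and 2.34 beside 2.80, 10.1 and 1.70, and XLOC_037196 near TSPOAP1 had 8.999, 16.9 and 2.17 beside 2.36, 6.06 and 0.739. All 3 pairs were highest in P, as were the summed T cell and macrophage markers given above. Plasma and B cell markers were lowest in P. The part of blood cells in these pairs was not tested. XLOC_005469 near LOC102185621 had 1.40, 14.2 and 1.58 FPKM and was 10.1-fold higher in P than in E, against 3.40, 6.91 and 2.63 for the gene. XLOC_021630, 9644 nt from SPATA5L1, had 3.96, 30.3 and 0.978 FPKM while SPATA5L1 had 3.99, 4.25 and 3.32, so the locus was 7.65-fold higher in P than in E where the gene was near level. XLOC_043544 near TFEB, a regulator of lysosomal genes, had 1.71, 17.6 and 3.97 FPKM against 4.18, 4.69 and 2.76, but shared its locus of 40345 nt with 8 other entries.

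Over the 186 pairs of at least 5 FPKM whose gene was 2-fold apart in some comparison, which belonged to 102 genes, the locus and the gene differed in their log2 ratios by a median of 0.38. The closest followed their gene almost exactly. XLOC_041419, 7868 nt from CLMN, had 9.30, 3.45 and 7.56 FPKM beside 19.2, 7.39 and 15.4, a mean difference of 0.044 on the log2 scale. XLOC_026861, 4962 nt from RRBP1, a ribosome-binding protein of the endoplasmic reticulum, had 9.66, 4.78 and 11.02 beside 106, 52.0 and 115, and XLOC_031384, 4768 nt from CREB3L1, a transcription factor of the same membrane, had 6.15, 3.45 and 11.4 beside 12.3, 6.98 and 21.5. XLOC_030334 near SC5D, an enzyme of cholesterol synthesis, and XLOC_043739 near LOC102188814 differed by 0.059 and 0.061. XLOC_030334 shared its locus with another entry. All 5 lay 2349 to 7868 nt from their gene, and none within 2 kb. Most pairs at this level lay beyond 2 kb as well. Of the 542 pairs of at least 5 FPKM, 208 were at 2 to 5 kb and 147 at 5 to 10 kb.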

How the data were processed

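RNA of each goat was pooled by stage and sequenced as stranded paired-end libraries. Per the submitters' processing notes, TopHat2 2.0.9, Cufflinks 2.1.1 and Bowtie2 were used. Per the methods, short, single-exon and little-covered transcripts were removed after assembly. The authors deposited FPKM for 50041 loci in 1 column per library. The methods cite the goat genome by a version number and by an accession of the ARS1 assembly. Which of them the scaffold coordinates follow was not settled, and no genome was used. A deposited locus is an assembly bundle that several entries can share. Depth per locus is unknown, and an FPKM of 0 may be a failed estimate.

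Gene IDs were matched to the ARS1.2 gene table for names, classes and neighbours (95.1% of nearest gene entries matched). Gaps run from edge to edge. Calls of 2-fold used the deposited FPKM with 0 set to 0.001, and log2 ratios of pairs a pseudocount of 0.1 FPKM, which understates low loci.

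Named loci follow a rule: the 10 highest means, the 4 highest and 4 lowest ratios per comparison (mean of at least 5 FPKM, at least 1 in both libraries), the 2 highest found in 1 library only, the 5 smallest and 5 largest differences from the gene, the gene with the most loci, and loci beside listed genes, of which examples are given. Lists hold 7 milk protein, 32 milk fat, 20 lactose and transport, 28 regulator, 23 involution and 24 ribosomal protein genes. Loci and lists were chosen with earlier results of these data known. Scripts were tested on simulated data and ran in Python 3.11.15 with scipy 1.17.1, pandas 2.3.3, numpy 2.4.6 and matplotlib 3.10.9.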

Additional observations from a re-analysis of the deposited data

How the results depend on the processing

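With 1 library per stage, no replicate was left out, the depth of a locus is unknown, and no interval is given. No paired analysis was possible because the libraries have no replicates. A low FPKM is the least certain, and most flanking loci are low. Of the alternatives, 4 were chosen after seeing the data: FPKM summed per nearest gene, loci not shared with another entry, genes with a locus of their own and spans of at least 1000 nt. The cause of the shifts below was not tested.

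Flanking loci at least 2-fold apart in P over E, L over E and L over P numbered 1430, 1146 and 1900 at a threshold of 4-fold, 1235, 731 and 1701 with a pseudocount of 1, 2347, 1789 and 2847 with a mean of at least 1 FPKM, and 2763, 2171 and 3205 within 5 kb. The split between higher and lower moved for P over E from 2390 and 1879 to 1005 and 1342 with a mean of at least 1 FPKM, and for L over P from 1950 and 2974 to 1488 and 1359. With a pseudocount of 1 it was 586 and 649 for P over E and 812 and 889 for L over P. With the columns labelled P and L exchanged, it was 1435 and 1969 for P over E and 2974 and 1950 for L over P. With a span of at least 1000 nt, 6430, 6422 and 6400 loci were above 0 in E, P and L.

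The Spearman coefficient within 10 kb for P over E was 0.468 with a pseudocount of 1, 0.449 without a filter, 0.705 with a mean of at least 5 FPKM, 0.441 as Pearson r, 0.470 for genes with a locus of their own, 0.535 for spans of at least 1000 nt and 0.201 with the columns labelled P and L exchanged. For L over E it was 0.179 without a filter, 0.327 with a mean of at least 5 FPKM, 0.121 as Pearson r, 0.205 for genes with a locus of their own, 0.240 for the longer spans and 0.461 with the columns exchanged. For L over P it was 0.488 without a filter, 0.741 with a mean of at least 5 FPKM, 0.486 with the closest locus per gene, 0.470 as Pearson r, 0.508 for genes with a locus of their own and 0.553 for the longer spans.

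The Spearman coefficient under 1 kb minus that at 5 to 10 kb for P over E took the opposite sign with a mean of at least 5 FPKM (-0.0539) and with the closest locus per gene (-0.0361). It was 0.0361 without a filter, 0.0458 as Pearson r, 0.0401 with FPKM summed per gene, 0.0126 for unshared loci and 0.0182 for the longer spans. For L over E it was 0.0128 without a filter, 0.163 with a mean of at least 5 FPKM, 0.0421 with the closest locus, 0.0234 for protein-coding genes, 0.105 as Pearson r, 0.0245 with summed FPKM, 0.0217 for genes with a locus of their own and 0.0151 for the longer spans. For L over P it was -0.00674 with a pseudocount of 1, -0.0202 without a filter, -0.0675 with a mean of at least 5 FPKM, -0.0336 with the closest locus, -0.0143 for protein-coding genes, 0.0562 as Pearson r, -0.0140 for unshared loci and 0.0203 for the longer spans.

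The median log2 ratio of locus to gene was -2.37 under 1 kb and -2.65 at 5 to 10 kb with a mean of at least 1 FPKM in both, -2.39 and -2.54 with the closest locus, and -2.50 and -2.80 for protein-coding genes. Another 54 values stayed within 1.5 times the first for counts, or equal to it at 2 decimals for the rest. These include counts with the columns exchanged, where the totals stayed within this limit but the split of higher and lower changed direction. They also include the difference by distance in L over P for genes with a locus of their own, which changed sign to 0.0020.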
